A study of Mus musculus with 10 samples.

Results

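Of the genes that were lower than in controls in double-positive (DP) thymocytes lacking the transcription factors E2A and HEB, 10 that belong to no common family were described here: Smoc1, Ldlrad3, Fmnl2, Car2, Lrig1, Cldn4, F13a1, Aqp11, Arpp21 and Dhrs3. They were selected on their own measured differences from control cells in the same arrays, some in DKO cells and some in HEBKO cells, out of 19937 named genes on the array, so those differences are a description and were not tested. All 10 were matched, each by 1 probe set, and all 10 were among the 13138 genes that passed the intensity filter. The groups were E2Aflox/flox HEBflox/flox cd4-cre+ mice (DKO, n = 3), HEBflox/flox cd4-cre+ mice (HEBKO, n = 2), E2Aflox/flox Cd4-cre+ mice (E2AKO, n = 2) and wild-type cd4-cre+ controls (WT, n = 3), with 1 Affymetrix array per mouse. Every mouse was 8 weeks old and carried the cre transgene, the controls included, and cre under Cd4 control deletes floxed genes only once thymocytes start to express it. About 1000000 DP cells at over 98% purity were sorted per mouse. All values below are log2 intensities after RMA, the authors' background correction and between-array normalisation.

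E2A (gene Tcf3) and HEB (gene Tcf12) are basic helix-loop-helix E proteins, which bind DNA as dimers at E-box motifs with the core CANNTG. In the thymus they keep DP cells at their stage, where the T cell receptor alpha chain is rearranged and cells wait for selection. Id proteins dimerise with E proteins and block their binding. The 10 genes encode secreted, membrane, cytoskeletal, enzymatic and RNA-binding proteins of no common family, and whether they share a pathway was not tested. What sets them beside each other is their lower level in DKO and HEBKO cells than in WT, and their patterns over the 4 genotypes differed.

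The array medians lay between 92.6 and 98.6 on the linear scale, and arrays of the same genotype correlated at 0.980 to 0.989 across genes. Tcf3, floxed in DKO and E2AKO mice, was 9.29, 8.93 and 8.94 in DKO, 10.02 and 10.06 in HEBKO, 9.23 and 9.12 in E2AKO, and 9.65, 9.85 and 9.63 in WT. It was lower in every array of both genotypes than in WT, and the fall passed in DKO (-0.66 ± 0.11, limma adjusted p = 0.00256) but not in E2AKO (-0.54 ± 0.13, adjusted p = 0.998). Which exons the probe sets read, and so how much of a deleted transcript they still detect, was not tested. Tcf12, floxed in DKO and HEBKO mice, was 10.68, 10.73 and 10.71 in DKO, 11.15 and 11.48 in HEBKO, 12 and 11.87 in E2AKO, and 11.91, 11.74 and 11.86 in WT. It fell in DKO (-1.13 ± 0.10, adjusted p = 3.07e-05), and in HEBKO the difference of -0.52 ± 0.12 did not pass (adjusted p = 0.0657), though both arrays were below every WT array and HEBKO 1 was the lower. Of the Id genes, Id3 (-1.63 ± 0.23, limma adjusted p = 0.000687) and Id2 (-0.55 ± 0.14, adjusted p = 0.0192) fell in DKO. Id2 lay under the 40th percentile in all 3 DKO arrays, and its call was lost without WT 2, WT 3, DKO 2 or DKO 3 (adjusted p up to 0.0762). All 8 DP markers on the array, Cd4, Cd8a and Rag1 among them, lay above the 40th percentile of the array in every array. In DKO 6 of the 8 fell, where 13.6% of all genes tested were called in either direction. The falls were largest for Rag2 (-1.96), Cd4 (-1.88), Rag1 (-1.64) and Dntt (-0.99). Of the 6, Cd8b1 lost its call without WT 3, DKO 1, DKO 2 or DKO 3 (adjusted p up to 0.118). In such bulk samples fewer cells of a type and less RNA per cell cannot be told apart.

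All 10 genes were lower in every DKO array and every HEBKO array than in any WT array, as their selection makes likely. How many of all genes tested were so was not counted, so this describes the 10 genes only. The median difference over the 10 was -2.46 in DKO, -1.31 in HEBKO and -0.39 in E2AKO, where the medians over all genes tested were -0.0056, -0.0029 and -0.02. By the size of the fall in DKO, Dhrs3 ranked 2, F13a1 3, Smoc1 7, Ldlrad3 8, Aqp11 9 and Fmnl2 10 among the 13138 genes, Arpp21 ranked 21, Cldn4 85 and Lrig1 361. In HEBKO the order was different, with Aqp11 at 4, Smoc1 at 6, Ldlrad3 at 7, Fmnl2 at 11 and Lrig1 at 20, but F13a1 at 66 and Arpp21 at 107. Car2 has no rank here, because its values in both genotypes lay at the level of background.

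**Figure D1:**
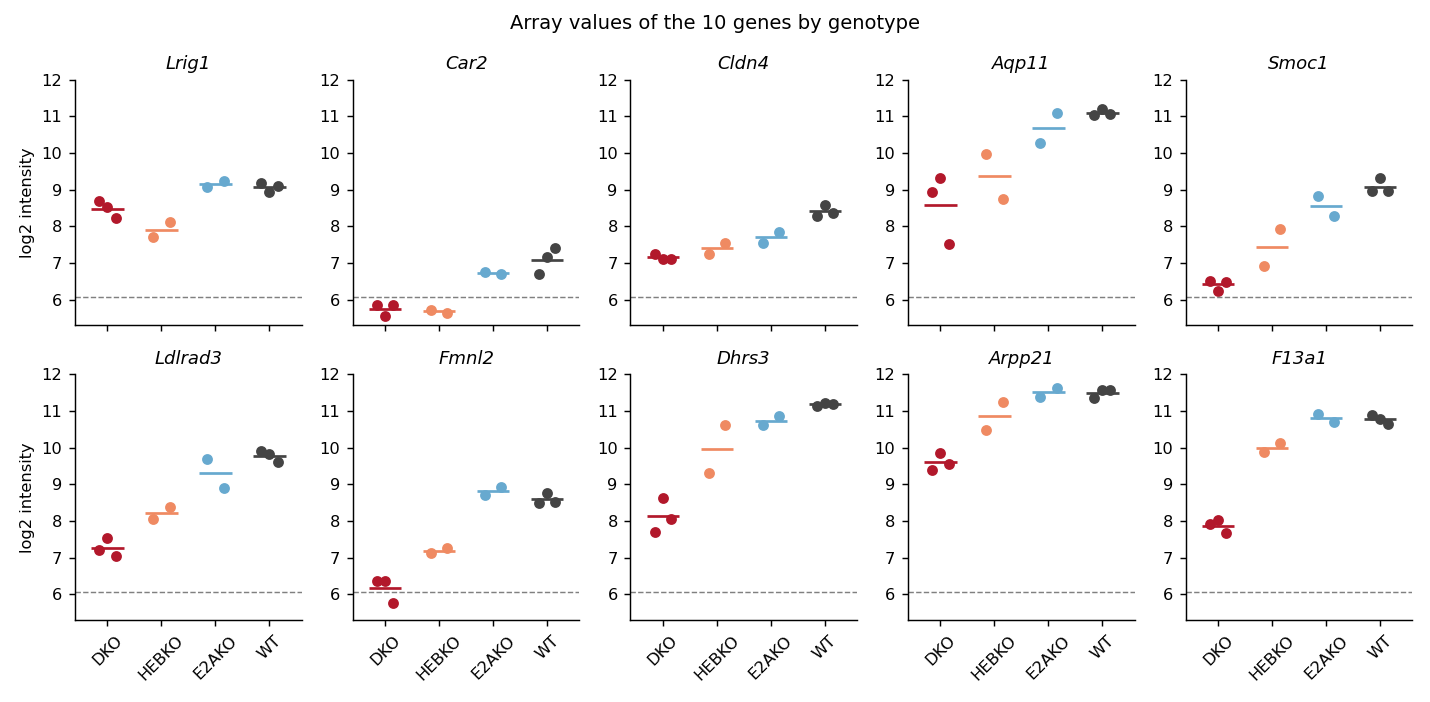
Log2 intensity (vertical axis) of the 10 genes in each array, by genotype (DKO n = 3, HEBKO n = 2, E2AKO n = 2, WT n = 3). Points are arrays, short lines are group means, and the dashed line is the mean 40th percentile of the arrays, taken as the level of background. Car2 in DKO and HEBKO lies under that line, and Lrig1 is the 1 gene with every DKO array above both HEBKO arrays.

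The genes were graded by the share of the DKO difference that loss of HEB alone already gave, on the log2 scale. The median share was 62.1%, and the 10 shares ran from 26.6% for F13a1 to 198% for Lrig1. For the description, made after these shares were seen, the genes were taken in 3 sets: Lrig1, Car2 and Cldn4 at 80.6% or more, Aqp11, Smoc1, Ldlrad3 and Fmnl2 between 57.8% and 69.0%, and Dhrs3, Arpp21 and F13a1 at 39.9% or less. Car2 stands in the first set only by values at background, and its share is not a measured one. Cldn4 stands there by the mean of both HEBKO arrays, with 68.5% from HEBKO 2 alone.

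**Figure D2:**
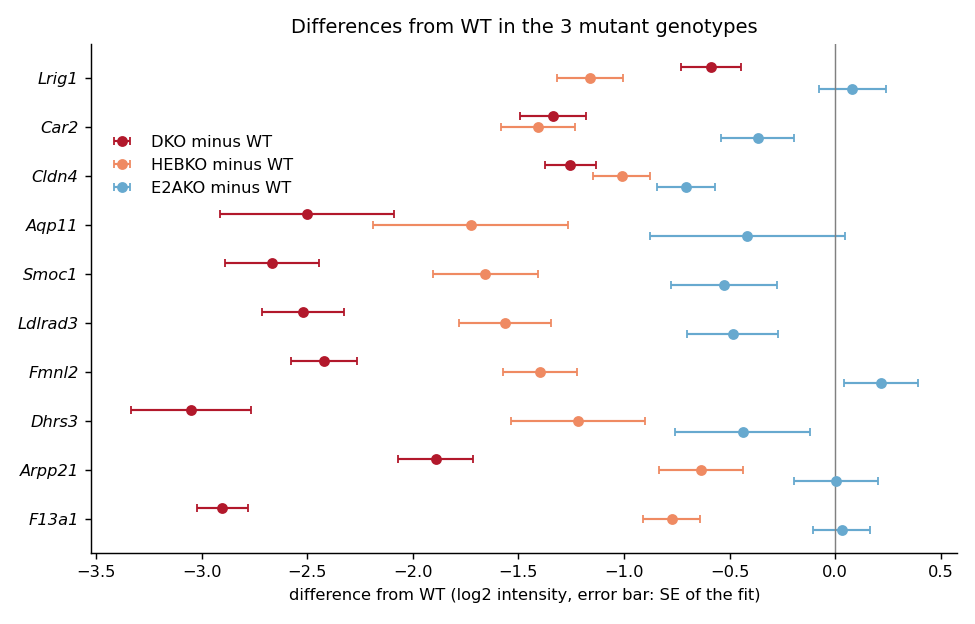
Difference from WT in log2 intensity (horizontal axis) for each gene, ordered from the highest share in HEBKO at the top. Points are the fitted differences for DKO, HEBKO and E2AKO and bars are their SE, and the DKO and HEBKO points lie close together for Car2 and Cldn4 but far apart for F13a1 (DKO minus HEBKO -2.13).

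Lrig1 encodes a membrane protein that restrains receptors of the epidermal growth factor family. Its values were 8.68, 8.54 and 8.23 in DKO, 7.70 and 8.12 in HEBKO, 9.07 and 9.24 in E2AKO, and 9.19, 8.94 and 9.09 in WT. The lowest level was thus in HEBKO, with no overlap between HEBKO and DKO, and the E2AKO and WT arrays overlapped. Relative to WT the level was 66.6% in DKO, 44.7% in HEBKO and 106% in E2AKO, with differences of -0.59 ± 0.14 (SE), -1.16 ± 0.16 and 0.08 ± 0.16. Among the 10 genes it alone was higher in DKO than in HEBKO by more than the spread of the arrays, by 0.57.

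Car2, carbonic anhydrase II, catalyses the hydration of carbon dioxide. It was measured at 5.85, 5.57 and 5.85 in DKO, 5.72 and 5.65 in HEBKO, 6.75 and 6.70 in E2AKO, and 6.70, 7.18 and 7.40 in WT. All DKO and HEBKO arrays were under the 40th percentile of their array, which lay between 6.03 and 6.13, so neither group has a measured level and their order is not known. Against that floor Car2 was at least 2.03-fold lower in DKO and at least 2.06-fold lower in HEBKO than in WT. Its share of 105% therefore says only that both genotypes reached the floor.

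Cldn4 encodes claudin 4, a protein of tight junctions that in the thymus is known from medullary epithelial cells. Its values were 7.25, 7.10 and 7.12 in DKO, 7.25 and 7.55 in HEBKO, 7.55 and 7.86 in E2AKO, and 8.30, 8.58 and 8.36 in WT. All 3 mutant genotypes lay below WT without overlap, while DKO and HEBKO touched at their edges. The differences were -1.26 ± 0.12 in DKO, -1.01 ± 0.14 in HEBKO and -0.71 ± 0.14 in E2AKO, which leaves 41.9%, 49.6% and 61.3% of the WT level. The sum of the single differences, -1.72, was larger than the difference in DKO.

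The markers of thymic epithelium are given beside Cldn4. Of 10 on the array, 7 were tested, 1 of them, Epcam, fell in DKO (-0.54 ± 0.11, limma adjusted p = 0.00811) and none was called in HEBKO or E2AKO. Of all genes tested 13.6% were called in DKO, so 1 of 7 is near the share over all genes. Epcam lay under the 40th percentile in all 3 DKO arrays, both HEBKO arrays, 1 E2AKO array and 1 WT array, so the size of its fall is not measured. Aire, which marks medullary epithelial cells, was 6.82, 6.81 and 6.78 in DKO, 6.83 and 6.75 in HEBKO, 6.46 and 6.85 in E2AKO, and 7.26, 6.94 and 7.04 in WT. As for Cldn4, all 7 mutant arrays lay below every WT array, but the differences of -0.28 ± 0.12 in DKO, -0.29 ± 0.13 in HEBKO and -0.43 ± 0.13 in E2AKO did not pass (limma adjusted p = 0.161, 0.297 and 0.998). Krt8, a keratin of epithelial cells, differed by -0.37 ± 0.17 in DKO, -0.46 ± 0.19 in HEBKO and -0.22 ± 0.19 in E2AKO, and was not called either. Cldn3, a claudin on this list, differed by -0.06 ± 0.16 in DKO, -0.20 ± 0.18 in HEBKO and -0.30 ± 0.18 in E2AKO. In the same order Prss16 differed by -0.12 ± 0.11, -0.20 ± 0.12 and -0.24 ± 0.12. Ly75 differed by -0.35 ± 0.14, -0.07 ± 0.16 and 0.01 ± 0.16, and none of Cldn3, Prss16 and Ly75 was called. Foxn1, the defining factor of thymic epithelium, averaged 6.07 in DKO, 6.11 in HEBKO, 6.02 in E2AKO and 6.04 in WT, at the 40th percentile, and Psmb11 and Krt5 were under it in all 10 arrays. The log2 of the summed intensity of the list was 9.97 to 10.17 in DKO, 10.03 to 10.15 in HEBKO, 10.08 to 10.20 in E2AKO and 10.18 to 10.43 in WT, and the part of these markers in the Cldn4 values was not tested.

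The window upstream of the Cldn4 start site holds both E-box forms searched for here, CAGCTG and CACCTG (read on either strand, so that CAGGTG counts as CACCTG), and it is printed 5′ to 3′ on the strand of the gene to show where they lie. The sequence is RefSeq's on build GRCm38.p6, chr5:134946935-134947184, minus strand, and capitals mark the 2 motifs, which begin 221 and 14 bases before the start site.
Cldn4: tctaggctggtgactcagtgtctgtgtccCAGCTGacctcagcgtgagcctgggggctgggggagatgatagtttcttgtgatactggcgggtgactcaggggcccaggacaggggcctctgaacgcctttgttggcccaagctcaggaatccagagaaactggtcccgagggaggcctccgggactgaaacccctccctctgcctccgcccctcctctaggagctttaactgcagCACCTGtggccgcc
Of all 32851 RefSeq mouse windows of the same 250 bases, 13% hold CAGCTG, 17.2% hold CACCTG and 27.7% hold either.

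In the second set, Smoc1 encodes a secreted calcium-binding protein related to SPARC. It was 6.52, 6.24 and 6.50 in DKO, 6.93 and 7.93 in HEBKO, 8.82 and 8.29 in E2AKO, and 8.97, 9.31 and 8.97 in WT. The 4 genotypes followed each other without overlap, from lowest in DKO to highest in WT, and HEBKO 1 minus HEBKO 2 was -1.003. The level relative to WT was 15.7% in DKO, 31.7% in HEBKO and 69.4% in E2AKO, and the differences were -2.67 ± 0.22, -1.66 ± 0.25 and -0.53 ± 0.25.

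Ldlrad3 encodes a membrane protein with repeats like those of the low-density lipoprotein receptor. Its values were 7.20, 7.54 and 7.06 in DKO, 8.06 and 8.39 in HEBKO, 9.71 and 8.90 in E2AKO, and 9.92, 9.83 and 9.61 in WT. DKO, HEBKO and the other 2 genotypes formed separate steps, and 1 of 2 E2AKO arrays lay within the WT range. The differences were -2.52 ± 0.19, -1.57 ± 0.22 and -0.49 ± 0.22 in DKO, HEBKO and E2AKO, nearly those of Smoc1, and the shares of both genes in HEBKO were 62.1%.

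Fmnl2 encodes a formin, a protein that lengthens actin filaments at the cell edge. It was 6.38, 6.37 and 5.77 in DKO, 7.14 and 7.25 in HEBKO, 8.70 and 8.92 in E2AKO, and 8.49, 8.77 and 8.53 in WT. HEBKO lay between DKO and WT without touching either, E2AKO overlapped WT from above, and DKO 3 was under the 40th percentile. The difference was -2.42 ± 0.16 in DKO, -1.40 ± 0.17 in HEBKO and 0.22 ± 0.17 in E2AKO. With the floor in place of the array under it, Fmnl2 was at least 5.01-fold lower in DKO than in WT. Its upstream window (chr2:52857618-52857867, plus strand, GRCm38.p6) is printed as a contrast to that of Cldn4, since it holds neither motif and no CANNTG at all, where 66.2% of all windows hold a CANNTG.
Fmnl2: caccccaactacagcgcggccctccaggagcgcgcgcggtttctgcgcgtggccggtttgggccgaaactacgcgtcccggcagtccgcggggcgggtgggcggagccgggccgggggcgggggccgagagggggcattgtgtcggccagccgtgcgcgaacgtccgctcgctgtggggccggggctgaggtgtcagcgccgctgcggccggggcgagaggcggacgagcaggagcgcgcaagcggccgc

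Aqp11 encodes an aquaporin of intracellular membranes. It was 8.95, 9.31 and 7.52 in DKO, 9.97 and 8.76 in HEBKO, 10.26 and 11.09 in E2AKO, and 11.03, 11.19 and 11.06 in WT. It varied widely within mutant groups, with an SD of 0.95 in DKO and 0.86 in HEBKO against 0.08 in WT (only Dhrs3 varied more in HEBKO, SD 0.91), and HEBKO 2 lay inside the DKO range. The differences of -2.50 ± 0.41 in DKO and -1.73 ± 0.46 in HEBKO thus do not separate the 2 genotypes.

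In the third set, Dhrs3 encodes an enzyme that reduces retinaldehyde to retinol and so lowers the supply for retinoic acid. It was 7.69, 8.64 and 8.06 in DKO, 9.32 and 10.61 in HEBKO, 10.62 and 10.86 in E2AKO, and 11.14, 11.22 and 11.18 in WT. The WT arrays were close together (SD 0.04) and both E2AKO arrays were below them, while HEBKO 2 almost reached the lower E2AKO array. Dhrs3 kept 12.1% of the WT level in DKO, 43.0% in HEBKO and 73.8% in E2AKO, and the differences were -3.05 ± 0.29, -1.22 ± 0.32 and -0.44 ± 0.32.

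F13a1 encodes the catalytic chain of coagulation factor XIII, a transglutaminase known from platelets and macrophages. It was 7.92, 8.03 and 7.66 in DKO, 9.88 and 10.13 in HEBKO, 10.91 and 10.70 in E2AKO, and 10.89, 10.77 and 10.66 in WT. E2AKO and WT overlapped, HEBKO lay a short step below them, and DKO lay far below HEBKO. The level relative to WT was 13.4% in DKO, 58.5% in HEBKO and 102% in E2AKO, with differences of -2.90 ± 0.12, -0.77 ± 0.14 and 0.03 ± 0.14. Of its 2 annotated start sites, 1 has a CAGCTG upstream, 99 bases before the start (chr13:37050245-37050494, minus strand, GRCm38.p6), printed here because F13a1 has the lowest share in HEBKO.
F13a1: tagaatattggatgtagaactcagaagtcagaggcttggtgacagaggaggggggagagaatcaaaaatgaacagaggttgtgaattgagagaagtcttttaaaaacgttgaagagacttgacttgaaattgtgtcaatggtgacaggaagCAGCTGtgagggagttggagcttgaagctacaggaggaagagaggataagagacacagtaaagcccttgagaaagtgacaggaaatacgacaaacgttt

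Since F13a1 is known from macrophages, their markers are given beside it. Of 11 on the array, 8 were under the 40th percentile in all 10 arrays, among them Lyz2, Csf1r, Adgre1 and Cd163, and 3 were tested. Itgam, an integrin chain, fell in DKO (-0.67 ± 0.15, limma adjusted p = 0.0113), and Cd68 at -0.27 ± 0.12 and C1qa at 0.11 ± 0.16 did not pass. The log2 of the summed intensity of the list was 9.15 to 9.29 in DKO, 9.32 to 9.45 in HEBKO, 9.43 to 9.49 in E2AKO and 9.32 to 9.53 in WT, and its part in the F13a1 values was not tested. For Car2, which red blood cell precursors also express, 4 erythroid markers were on the array, of which Epb42 and Car1 were under that percentile in all 10 arrays, Klf1 was under it in all but 1 HEBKO array, and Alas2 was not called (-0.16 ± 0.11 in DKO). Of 4 markers of B cells, 2 were tested and Cd79b fell in DKO (-0.59 ± 0.13, limma adjusted p = 0.0105), a call lost without DKO 3 (adjusted p = 0.0512). Of all genes tested 13.6% were called in DKO, and the tested markers of macrophages and B cells are too few to compare with that share.

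Arpp21 encodes a cAMP-regulated phosphoprotein that binds RNA and is known from immature thymocytes and the striatum. It was 9.40, 9.86 and 9.57 in DKO, 10.49 and 11.24 in HEBKO, 11.40 and 11.62 in E2AKO, and 11.35, 11.57 and 11.58 in WT. E2AKO and WT overlapped, HEBKO 2 lay just below them and HEBKO 1 lay lower still (HEBKO 1 minus HEBKO 2 -0.75). The differences were -1.89 ± 0.18 in DKO, -0.64 ± 0.20 in HEBKO and 0.01 ± 0.20 in E2AKO. RefSeq lists 9 start sites for Arpp21, and 5 of their upstream windows hold CAGCTG or CACCTG. The window with the most, 1 CAGCTG and 3 CACCTG, is shown (chr9:112217352-112217601, minus strand, GRCm38.p6); which start site thymocytes use was not tested.
Arpp21: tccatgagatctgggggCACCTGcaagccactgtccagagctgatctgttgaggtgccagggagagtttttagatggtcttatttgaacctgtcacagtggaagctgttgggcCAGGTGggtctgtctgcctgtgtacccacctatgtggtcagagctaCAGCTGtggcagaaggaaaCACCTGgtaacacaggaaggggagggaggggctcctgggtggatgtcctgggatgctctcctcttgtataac

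The gene model of Arpp21 contains the microRNA precursor Mir128-2, on the same strand, and the array reads that precursor with a probe set of its own. Mir128-2 was 6.23, 6.29 and 6.23 in DKO, 6.53 and 6.40 in HEBKO, 6.95 and 6.94 in E2AKO, and 6.92, 6.63 and 6.85 in WT. Every DKO array and both HEBKO arrays were below every WT array, all of them close to background. It fell in DKO by 0.55 ± 0.10 (limma adjusted p = 0.00281), and the difference of -0.33 in HEBKO did not pass (adjusted p = 0.155). The second precursor of the family, Mir128-1, which lies outside Arpp21 on chromosome 1, was not called in DKO (0.03 ± 0.14, adjusted p = 0.919). Both precursors give the same 3p product, so the sequences are shown with the seed (bases 2 to 8) in capitals, from RefSeq at chr9:112118644-112118664 for the 3p arm and chr9:112118679-112118701 for the 5p arm. The levels of the mature microRNAs were not measured.
mmu-miR-128-3p: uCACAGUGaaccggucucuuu
mmu-miR-128-2-5p: gGGGGCCGaugcacuguaagaga

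Over the set, 8 of the 10 genes matched RefSeq promoter windows, 19 windows in all, and 3 of the 8 (Cldn4, F13a1 and Arpp21) had CAGCTG or CACCTG in at least 1 window. Of the 19 windows 7 held either motif, 5 of them windows of Arpp21, where 27.7% of all windows do. Lrig1, Ldlrad3, Fmnl2, Aqp11 and Dhrs3 had neither in these 250 bases. Some windows of Arpp21 overlap each other, so they are not independent. A gene with several windows can more easily hold a motif in at least 1, and the share of all genes that do was not counted. The count of 3 of 8 genes thus has no background here.

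The grade differed between the 2 HEBKO mice. Taken from HEBKO 1 alone, the share of the mean DKO difference was 61.1% for Dhrs3, 53.4% for Arpp21, 80.9% for Smoc1 and 44.7% for Aqp11. Taken from HEBKO 2 alone, it was 18.7% for Dhrs3, 13.9% for Arpp21, 43.3% for Smoc1 and 93.2% for Aqp11. The shares of F13a1 (30.9% and 22.4%), Fmnl2 (60.2% and 55.3%) and Ldlrad3 (68.5% and 55.6%) were close in both mice, and Lrig1 was over 100% in both. Aqp11, Dhrs3, Arpp21 and Smoc1 thus have no fixed place in the order, while F13a1 lay under Fmnl2 and Ldlrad3 in each mouse. The share of Cldn4 was 92.6% in HEBKO 1 and 68.5% in HEBKO 2. In HEBKO 2 Cldn4 thus lay under Aqp11 and within the range of the second set. In all, 8 of the 10 genes were lower in HEBKO 1 than in HEBKO 2, where 51.6% of all genes tested were, and HEBKO 1 was also the array with less Tcf12. All 8 DP markers were lower in HEBKO 1 too, among them Cd4 at 11.34 in HEBKO 1 and 11.77 in HEBKO 2, Rag1 at 12.98 and 13.53, and Rag2 at 9.93 and 10.80. The part of either in the shift of the 10 genes was not tested. Car2 and Aqp11 were the 2 members that were not lower in HEBKO 1.

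Loss of E2A alone was not used to grade the genes and was tested, with the caution that the WT arrays are those the selection used. None of the 10 was called in E2AKO (limma, adjusted p of 0.998 or more for all 10), and none of the 13138 genes was (0%). That includes Tcf3, the floxed gene itself (-0.54 ± 0.13, limma adjusted p = 0.998), so the lack of a call does not show that a gene was unchanged. An unadjusted limma p under 0.05 was found for 418 of the 13138 genes. That is fewer than this threshold passes on average where no gene differs. The largest difference of the 10 was that of Cldn4 (-0.71, 95% interval -1.003 to -0.41, unadjusted p = 0.000239 in limma, adjusted p = 0.998), the fifth largest fall among all genes tested. The interval of Ldlrad3 (-0.96 to -0.01, unadjusted p = 0.0458 in limma, adjusted p = 0.998) also lay below 0. The intervals of Smoc1 (-1.07 to 0.02), Car2 (-0.75 to 0.01), Dhrs3 (-1.14 to 0.26), Aqp11 (-1.43 to 0.59) and Fmnl2 (-0.16 to 0.60) included 0. For Lrig1, F13a1 and Arpp21 the differences of 0.08, 0.03 and 0.01 had intervals of -0.26 to 0.43, -0.27 to 0.33 and -0.43 to 0.44, so that these arrays do not exclude changes of that size. Both E2AKO arrays lay under all 3 WT arrays for Cldn4, Smoc1 and Dhrs3, 3 of 10 genes, where 10.6% of all genes tested did.

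The DKO difference was set beside the sum of the 2 single differences, as a description. The DKO difference minus that sum was -2.16 ± 0.19 for F13a1, -1.40 ± 0.45 for Dhrs3, -1.26 ± 0.28 for Arpp21 and -1.24 ± 0.25 for Fmnl2 (SE). It was -0.48 ± 0.35 for Smoc1, -0.47 ± 0.31 for Ldlrad3 and -0.36 ± 0.65 for Aqp11. It was above 0 for Lrig1 (0.49 ± 0.22), Cldn4 (0.46 ± 0.19) and Car2 (0.44 ± 0.25), the value of Car2 being limited by the floor.

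**Figure D3:**
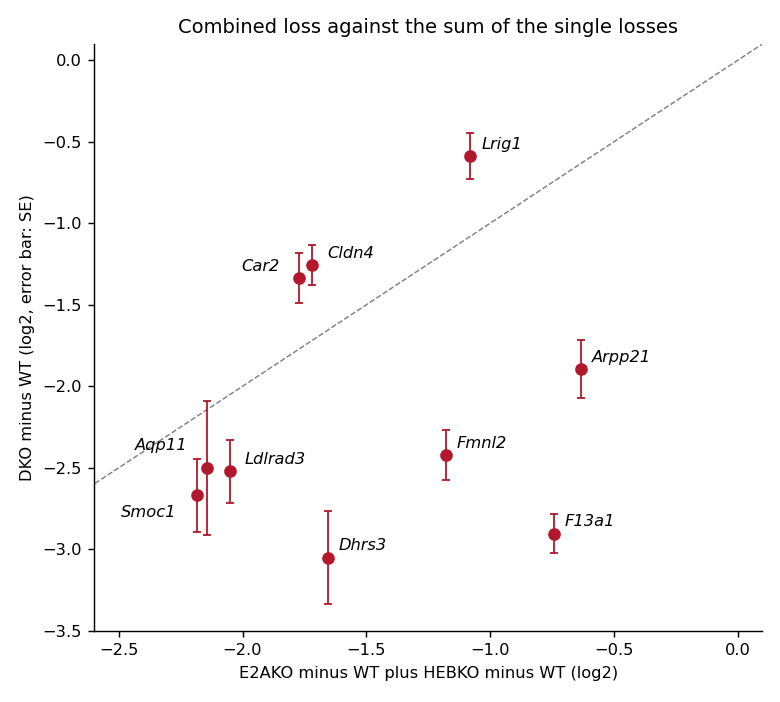
DKO minus WT (vertical axis, log2, bars are SE) against the sum of E2AKO minus WT and HEBKO minus WT (horizontal axis, log2) for the 10 genes. The dashed line marks equal values; F13a1 lies farthest below it (-2.16) and Lrig1 above it (0.49).

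For each of the 10 genes a list of relatives or partners was compared, 134 genes in 10 lists, of which 130 were on the array and 78 were tested. Of these 78, 4 were called in DKO (5.13%, where 13.6% of all genes were called), 3 down and 1 up, and the median DKO difference was -0.05. None was called in HEBKO (0 of 78, where 0.906% of all genes were) and none in E2AKO. No relative of Smoc1, Fmnl2, Car2, Lrig1, Cldn4, F13a1 or Aqp11 was called in any genotype. These backgrounds moved when 1 array was left out. The 119 genes called in HEBKO became 2 with HEBKO 1 removed, 13 with WT 3, 24 with WT 1, 55 with DKO 2, 76 with DKO 1 and 495 with WT 2 removed. The 1786 genes called in DKO became 991 with WT 3, 1037 with DKO 3 and 1127 with DKO 2 removed.

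Among 13 tested genes with LDL receptor repeats or known to act with Ldlrad3, Ldlrad4, which encodes an inhibitor of TGF-beta signalling, fell in DKO. It was 9.003, 9.33 and 9.03 in DKO, 9.77 and 10.10 in HEBKO, 10.04 and 10.32 in E2AKO, and 10.15, 10.44 and 10.40 in WT. The DKO arrays stood below all others (-1.21 ± 0.13, limma adjusted p = 0.000109). Lrp8, a receptor for reelin, fell by 0.49 ± 0.11 (adjusted p = 0.0135), a call lost without WT 3 or DKO 3 (adjusted p up to 0.0631). Itch and Nedd4, ubiquitin ligases that human LDLRAD3 binds, were not called in DKO.

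Of 19 tested genes of retinoid metabolism and response, 18 were not called in DKO and Rdh14, a retinal reductase, rose. Rdh14 was 6.77, 7.09 and 7.28 in DKO, 6.66 and 6.93 in HEBKO, 6.80 and 6.82 in E2AKO, and 6.22, 6.66 and 6.64 in WT, so that every DKO array was above every WT array. The rise of 0.54 ± 0.15 (limma adjusted p = 0.0351) was lost without WT 1, WT 3, DKO 2 or DKO 3 (adjusted p up to 0.148). The retinoic acid receptor genes Rara (-0.18) and Rarg (-0.07) and the partner gene Rxrb (0.08) were not called in DKO, and the list median was 0.02.

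Formins other than Fmnl2 gave 8 tested genes and none called. Fmnl1, the close relative that leukocytes express, averaged 10.48 ± 0.12 in DKO (SD, n = 3), 10.18 in HEBKO, 10.39 in E2AKO and 10.42 ± 0.14 in WT, and Diaph1 differed from WT by -0.01 ± 0.11 in DKO. Of 11 tested claudin and tight junction genes none was called, with Cldn3 at -0.06 ± 0.16 and Cldn7 at -0.09 ± 0.14 in DKO. Lrig2 differed by -0.10 ± 0.10 and Smoc2 by 0.00 ± 0.11 in DKO. Of 15 other carbonic anhydrases 10 were under the 40th percentile in all 10 arrays, and none of the 5 tested was called.

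**Figure D4:**
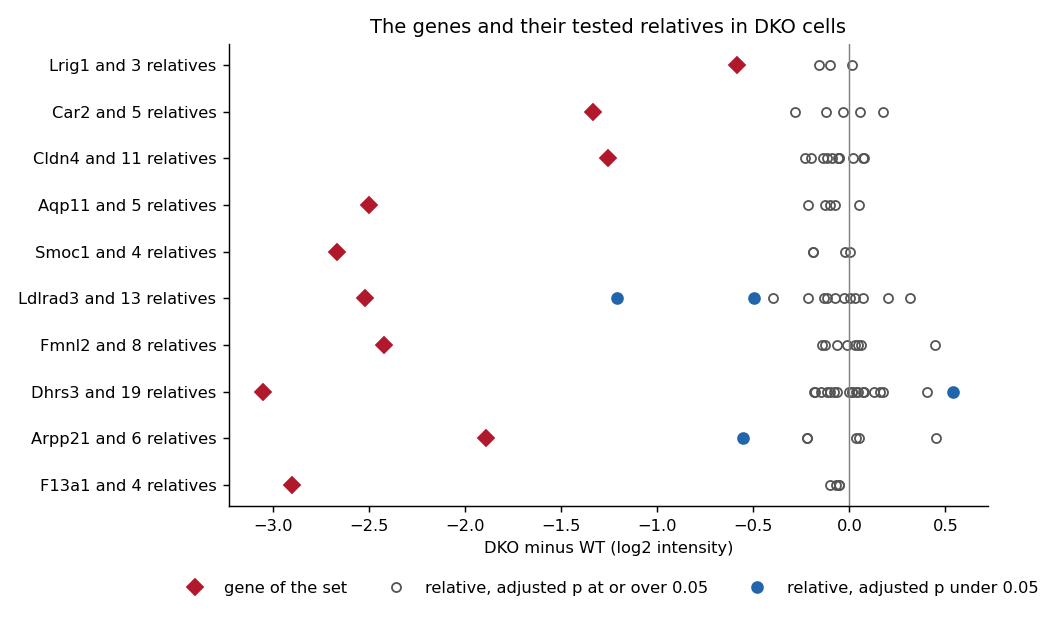
DKO minus WT in log2 intensity (horizontal axis) for the 10 genes (diamonds) and their tested relatives (circles, filled where the limma adjusted p was under 0.05). Nearly all relatives lie within 0.5 of 0, and the 4 filled circles are Ldlrad4 (-1.21), Lrp8 (-0.49), Mir128-2 (-0.55) and Rdh14 (0.54).

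The 10 genes resembled each other to different degrees. Against the mean scaled profile of the other 9 over the 10 arrays, Pearson's r was 0.97 for Fmnl2, Ldlrad3 and Smoc1, 0.93 for Dhrs3, 0.92 for Arpp21, 0.91 for F13a1, 0.89 for Cldn4, 0.88 for Car2 and Aqp11 and 0.67 for Lrig1. The arrays share their genotype groups, so these values describe the pattern and carry no p.

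The 10 other genes whose values over the 10 arrays were most like the mean profile were Plxdc1 (r = 0.9935), Igsf23, Dnajc6, Spats2l, Clk3, Abi3, Syt13, Psap, Aff3 and Evi5l (r = 0.979). Plxdc1, a plexin-domain membrane protein, came closest: 7.10, 6.95 and 6.85 in DKO, 7.40 and 8.09 in HEBKO, 8.67 and 8.96 in E2AKO, and 9.06, 9.26 and 9.20 in WT. Its share in HEBKO was 64.8%, near those of Smoc1 and Ldlrad3. The shares of the other 9 lay between 49.5% (Psap, the precursor of the saposins) and 74.2% (Igsf23). Their differences in DKO ran from -0.47 for Psap to -1.22 for Syt13, a synaptotagmin. Since they were found by their likeness, none of these values was tested.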

How the data were processed

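RNA of sorted DP thymocytes was measured on 10 arrays, 1 per mouse. The deposited values are intensities on a linear scale made by the authors with RMA, per the submitters' processing notes; version and genome build are not given in the sources used here. Their log2 was taken without a pseudocount. No array repeated another. Of 34760 probe sets, 21640 had 1 gene symbol in the platform annotation, 1321 several and 11799 none; the last 2 kinds were left out. Each of 19937 genes was read from its probe set with the highest mean, and 13138 were tested, which reached their array's 40th percentile in 2 or more arrays. That percentile also served as the floor below which a value has no measured level.

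All 10 arrays entered 1 limma fit (version 3.58.1, R 4.3.3) with a coefficient for each genotype (lmFit and eBayes; 6 residual and 5.68 prior degrees of freedom), because 2 groups hold 2 arrays each. P-values are two-sided and Benjamini-Hochberg adjusted over all genes tested, calls were made below an adjusted p of 0.05, and errors are SE of the fit unless given as SD. The fit and its calls were tested on simulated data with known falls in HEBKO only. The other contrasts, the shares and the floor were not simulated. The number of arrays limits the precision. The genes and the lists were chosen with earlier results of these data known. Named genes were the 10 of the set, the 10 nearest by Pearson's r, up to 4 called members of each list and defining markers; relatives named without a call were chosen after their values were seen. Promoter and microRNA sequences are RefSeq's (GRCm38.p6), which is not necessarily the build of the array. Alternatives were no filter, a 60th percentile filter, renewed quantile normalisation, arrays shifted to 1 median, the mean of probe sets, trend and robust moderation (statmod 1.5.0), array weights, a replicate block and each array left out.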

Additional observations from a re-analysis of the deposited data

Results flagged for a closer look

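Fmnl2 stood out because loss of E2A went opposite ways with and without HEB in every array. With HEB present, both E2AKO arrays lay above the WT mean (0.22 ± 0.17, SE), and with HEB absent all 3 DKO arrays lay below the HEBKO mean (-1.02). The difference of the 2 effects was -1.24 ± 0.25. It was not tested, since the DKO and HEBKO values chose the gene, and the E2AKO arrays overlapped WT. Groups of 2 and 3 arrays are too small to look for single outlying arrays.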

How the results depend on the processing

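The differences of the 10 genes from WT in DKO and HEBKO kept their sign in all 358 values computed under alternatives, and 9 of these moved by more than the spread between arrays. The genes were selected for falls in these same arrays, which leaves little room for a change of sign, so the kept sign is only a description. The median share in HEBKO was 62.1%, and 55.5% to 64.8% when 1 array was left out, lowest without HEBKO 1. Genes called in HEBKO numbered 73 with arrays shifted to 1 median, 495 with array weights and 2 to 495 with 1 array left out. Genes called in DKO numbered 3512 with array weights and 991 to 1910 with 1 array left out. The cause of these shifts was not tested. No gene was called in E2AKO when any array was left out. The sign of near-zero E2AKO differences turned: F13a1 was -0.0046 and Arpp21 -0.025 with renewed quantile normalisation, Arpp21 was -0.051 with array weights, and F13a1 was -0.051 with the replicate block. With 1 array left out F13a1 ranged from -0.071 to 0.13, Arpp21 from -0.11 to 0.12 and Lrig1 from -0.0061 to 0.17. Leaving out an array of E2AKO or HEBKO assumes that the lone array varies like the other groups. The 60th percentile filter removed Car2. Arrays of the same replicate number were compared after the genotype mean was taken out of each gene. Over 13 same-numbered pairs r ran from -0.29 (WT 2 with E2AKO 2) to 0.48 (HEBKO 1 with DKO 1), with 0.446 for HEBKO 2 with DKO 2. Nearest to their own number were 5 of 10 arrays, but in groups of 2 arrays the 2 values mirror each other. Whether equal numbers mark arrays handled together is not in the labels and was not tested. With the replicate block 1 gene was called in E2AKO, 104 in HEBKO and 2321 in DKO, and the median share was 64.3%.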
